A study of Homo sapiens with 9 samples.

Results

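Cells of HepG2, an established human liver cancer line, that had received 800 ng/ml recombinant SPARC were compared with HepG2 cells left untreated. The comparison takes in 6 of the 9 arrays of the series. They were chosen by their titles alone, as the 3 arrays titled for 800 ng/ml and the 3 titled untreated. RNA was collected 24 h after treatment, and each biotin-labelled sample was read on its own array in 1 colour. The remaining 3 arrays hold the same line at 200 ng/ml. They enter the shared estimate of spread, the background values, and the gaps that set 800 ng/ml arrays against all other arrays. All groups share the cell line, and the labels name no vehicle for the untreated cells. No label says whether replicates were separate cultures, so the p-values here reflect only how far these arrays differ, which may be technical.

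SPARC is a secreted, calcium-binding matricellular glycoprotein. It binds collagens in the matrix, alters how cells attach to it and can act on growth factor signalling, without being a structural part of the matrix itself. Hepatocytes make little of it, and in liver it is known mainly from stromal cells and fibrosis. HepG2 cells keep many hepatocyte features, including secretion of plasma proteins.

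Values are log2 signals as deposited, so a difference of 1 is a factor of 2 in signal. The hepatocyte character of the line was seen in every array. ALB, the main plasma protein, had 12.30, 12.14 and 12.25 in untreated replicates 1, 2 and 3 and 12.46, 12.34 and 12.35 in 800 ng/ml replicates 1, 2 and 3. AFP, its fetal counterpart, had 9.04, 8.16 and 8.93 and 9.04, 9.11 and 9.18 in the same order. The 800 ng/ml arrays lay above all untreated arrays for ALB and overlapped them for AFP, where untreated replicate 2 was low. APOA1, an apolipoprotein secreted by liver, had 10.22, 9.90 and 10.30 and 10.33, 10.21 and 10.27 with overlap.

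Untreated replicate 2 stood apart from the rest of the series. Its correlation with the other arrays over 17687 genes was 0.889 to 0.919, against 0.979 or more among the other 8. Its signals also spread less over genes, with an SD of 1.64 against 1.90 to 1.99 in the other 8. In this array 1852 genes (10.5%) lay over 1 log2 above both other untreated arrays and 2367 (13.4%) lay over 1 log2 below them. Untreated replicates 1 and 3 differed from each other by over 1 log2 in 40 genes (0.226%). Differences, list counts and list medians are therefore given with all arrays and without untreated replicate 2.

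The 3 arrays at 800 ng/ml were also not alike. Replicates 2 and 3 correlated at 0.990 and were over 1 log2 apart in 69 genes. Replicate 1 was over 1 log2 from replicate 2 in 142 genes, with 96 of them higher in replicate 2, and from replicate 3 in 142 genes, with 87 higher in replicate 3. Relative to untreated replicates 1 and 3, replicate 1 had 6 genes over 1 log2 above both (0.0339%) and 7 below both (0.0396%). Replicate 2 had 53 above (0.3%) and 3 below (0.017%), and replicate 3 had 49 above (0.277%) and 3 below (0.017%). No gene was over 1 log2 above both, or below both, in all 3 arrays at 800 ng/ml (0 and 0 of 17687, 0%). For scale, the same counts in 200 ng/ml replicates 1, 2 and 3 were 37 (0.209%), 7 (0.0396%) and 0 (0%) above and 45 (0.254%), 5 (0.0283%) and 2 (0.0113%) below. The genes high in replicates 2 and 3, many of them known from neural and glial cells, follow after the comparison over all arrays.

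**Figure D1:**
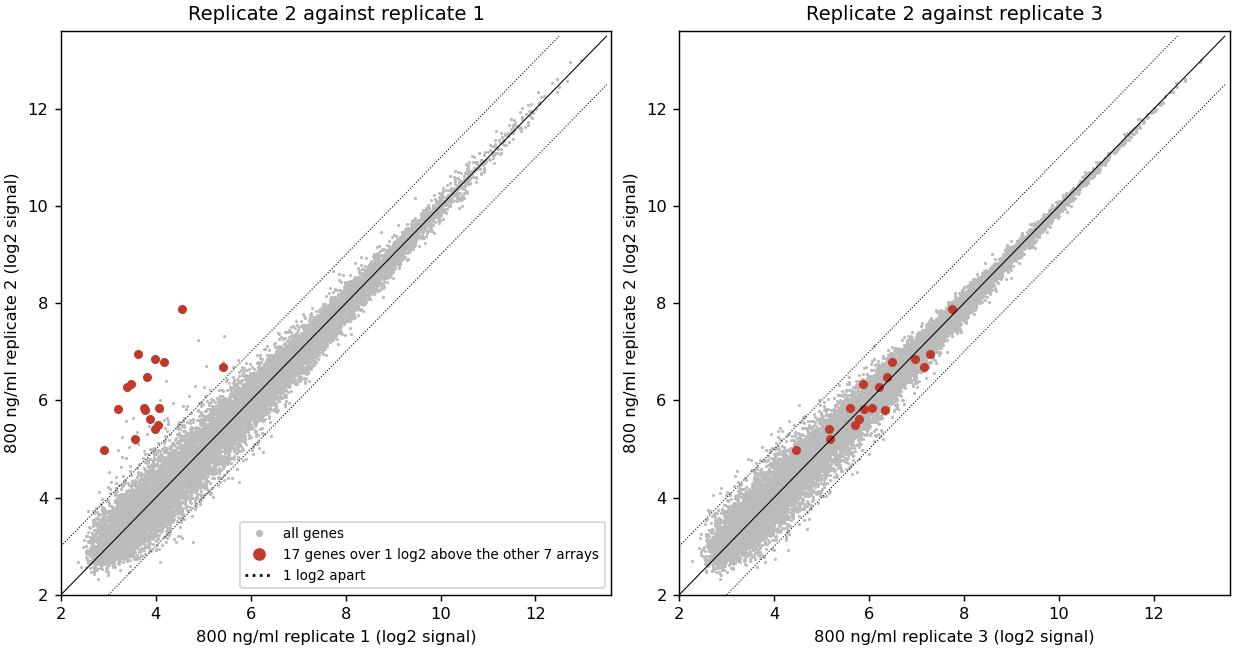
Log2 signal of every gene in 800 ng/ml replicate 2 against replicate 1 (left) and against replicate 3 (right), with 1 point per gene, the line of equality and dotted lines 1 log2 either side. The 17 red genes lay over 1 log2 above all 7 other arrays in replicates 2 and 3, and they fall on the diagonal on the right but above it on the left.

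Promoters were looked up for SPARC, SPARCL1, ADCYAP1R1, GPC4, GFAP, ADIPOR2 and PMP2. The first 4 are shown because they matched an entry, and none of them is a called change. SPARC, SPARCL1 and ADCYAP1R1 were high in the same pair of 800 ng/ml arrays, and GPC4 was low in all 3. Each line gives the 250 bases before the RefSeq start site on GRCh38.p14, 5′ to 3′. Capitals mark every match on either strand to any of 4 motifs, and neighbouring matches can overlap. They are the TATA box (letters searched, TATAAA), the binding motif of Sp1-like factors (letters searched, GGGCGG), the motif of NF-Y (letters searched, CCAAT) and the purine-rich element described in SPARC promoters (letters searched, GGAGGA).
SPARC (chr5:151686916-151687165, minus strand): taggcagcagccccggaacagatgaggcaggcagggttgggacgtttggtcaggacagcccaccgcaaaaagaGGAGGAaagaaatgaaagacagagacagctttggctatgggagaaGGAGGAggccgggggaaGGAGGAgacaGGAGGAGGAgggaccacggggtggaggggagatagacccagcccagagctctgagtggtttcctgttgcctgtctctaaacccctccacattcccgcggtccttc
SPARCL1 (chr4:87529377-87529626, minus strand): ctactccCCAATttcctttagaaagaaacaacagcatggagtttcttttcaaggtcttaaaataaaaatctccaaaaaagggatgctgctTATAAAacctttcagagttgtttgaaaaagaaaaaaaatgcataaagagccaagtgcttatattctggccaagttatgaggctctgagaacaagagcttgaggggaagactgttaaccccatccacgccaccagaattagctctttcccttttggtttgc
ADCYAP1R1 (chr7:31052058-31052307, plus strand): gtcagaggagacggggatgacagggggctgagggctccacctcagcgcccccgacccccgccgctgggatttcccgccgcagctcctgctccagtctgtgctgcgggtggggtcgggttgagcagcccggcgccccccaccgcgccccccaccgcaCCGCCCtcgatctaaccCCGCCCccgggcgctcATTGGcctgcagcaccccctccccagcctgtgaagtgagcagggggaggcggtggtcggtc
GPC4 (chrX:133415490-133415739, minus strand): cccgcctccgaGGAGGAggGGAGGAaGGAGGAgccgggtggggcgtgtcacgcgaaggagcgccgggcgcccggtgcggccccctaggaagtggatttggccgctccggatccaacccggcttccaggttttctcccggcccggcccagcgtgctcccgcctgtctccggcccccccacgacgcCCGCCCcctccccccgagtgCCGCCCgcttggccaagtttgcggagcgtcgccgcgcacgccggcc
GGAGGA matched at 5 positions in SPARC and 3 in GPC4, and at 0 in the other windows. Of 35116 RefSeq windows of this length, 31.8% hold that motif. TATAAA matched at 1 position, in SPARCL1, and is held by 10.7% of windows. GGGCGG matched at 2 positions each in ADCYAP1R1 and GPC4 (42.6% of windows), and CCAAT at 1 position each in SPARCL1 and ADCYAP1R1 (32% of windows). None of the 4 motifs was in all 3 of the windows of SPARC, SPARCL1 and ADCYAP1R1, and a match is a description and not a binding site.

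No gene passed the test between 800 ng/ml and untreated cells. With all arrays 0 of 17687 genes (0%) were called at an adjusted p under 0.05 (limma, smallest adjusted p = 0.659), and without untreated replicate 2 also 0 (0%; limma, smallest adjusted p = 0.861). Before adjustment, 737 genes (4.17%) had a p under 0.05, of which 270 had a higher mean at 800 ng/ml (1.53%) and 467 a lower one (2.64%). If no gene differed, a share of about 0.05 would be expected at this level. The count of 737 was 2112 without untreated replicate 1, 2708 without untreated replicate 3, and 432, 406 and 342 without 800 ng/ml replicates 1, 2 and 3. It was 230 without the dimmest 50% of genes, of which 151 were higher and 79 lower. Without untreated replicate 2 there were 948 (5.36%), with 448 higher (2.53%) and 500 lower (2.83%), and 410 genes met this level in both fits, with the same direction in 410. Both fits share every array but untreated replicate 2, so agreement between them was nearly fixed in advance and is no independent support. Signal was low for most genes at this level: 526 of the 737 with all arrays and 660 of the 948 without untreated replicate 2 had a mean signal below that of the median gene. The median gene had a 95% interval reaching 1.45-fold either way, or 1.28-fold without untreated replicate 2. The genes described next were those of smallest p, and none is a called change.

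The arrays of the 2 groups did not overlap for 1076 genes higher at 800 ng/ml (6.08%) and 909 lower (5.14%). Without untreated replicate 2 these were 1855 (10.5%) and 2093 (11.8%). Whether these shares exceed those of a random split of the arrays was not tested. All of the 12 lower genes of smallest p were separated in this way. They were picked by p in the same comparison, so a lack of overlap is no independent support for a change. The same holds for the other genes named below for a small p. The mean signal of the 12 lower genes was below that of the median gene (5.58) in 12 of 12. Untreated replicate 2 was the highest untreated array in 11 of the 12.

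AMPD3, an AMP deaminase that converts AMP to IMP, had the smallest p of all genes. Its signal was 4.73, 5.04 and 4.49 in untreated replicates 1, 2 and 3 and 3.66, 3.80 and 3.47 at 800 ng/ml. Every 800 ng/ml array lay below every untreated array. The log2 difference was −1.11 ± 0.21 (SE), a ratio of 0.464, and −0.96 ± 0.15 without untreated replicate 2 (limma, adjusted p = 0.659 and 0.861). The arrays at 200 ng/ml had 3.94, 3.88 and 4.21, between the other groups. Among 19 measured genes of purine nucleotide salvage and deamination AMPD3 was the only one with an unadjusted p under 0.05 in either fit. Over all genes 4.17% had one with all arrays and 5.36% without untreated replicate 2, so 1 of 19 was near the share of all genes. A higher mean at 800 ng/ml was found in 13 of the 19 with all arrays and 10 without untreated replicate 2.

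GPC4, a glypican that carries heparan sulfate on the cell surface, had 5.05, 5.80 and 4.67 in untreated cells and 4.02, 4.34 and 4.08 at 800 ng/ml. The groups did not overlap, and replicate 2 of the untreated cells was the highest array. The difference was −1.03 ± 0.26 with all arrays and −0.72 ± 0.15 without that array. GPC1, another glypican, had 5.52, 5.72 and 5.35 and 5.15, 4.95 and 5.22, again without overlap, with differences of −0.42 ± 0.19 and −0.32 ± 0.15. Of the 11 heparan sulfate proteoglycans measured, these 2 were lower without overlap with all arrays, where 5.14% of all genes were. Without untreated replicate 2 the count was also 2, where 11.8% of all genes were, and 0 were higher without overlap in either fit. A higher mean at 800 ng/ml was found in 5 of the 11 with all arrays and 3 without untreated replicate 2.

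Regulators of phosphoinositides, glycogen and insulin-responsive transcription were also among the 12. INPP5E, which removes a phosphate from phosphoinositides in cilia, had 5.34, 5.69 and 5.52 in untreated replicates 1, 2 and 3 and 4.86, 4.73 and 4.65 at 800 ng/ml, a difference of −0.77 ± 0.18 (−0.68 ± 0.12 without untreated replicate 2). PPP1R3D, which targets protein phosphatase 1 to glycogen, had 5.78, 6.03 and 5.62 and 4.66, 4.76 and 5.08, with differences of −0.97 ± 0.23 and −0.86 ± 0.20. FOXO6, a forkhead factor downstream of insulin, had 5.50, 6.28 and 5.26 and 4.62, 4.62 and 4.74, with differences of −1.02 ± 0.25 and −0.72 ± 0.14. In none of the 3 genes did the groups overlap, and the 800 ng/ml arrays of FOXO6 lay within 0.12 of each other.
INPPL1, a phosphatase related in activity to INPP5E, had a higher mean at 800 ng/ml, with 5.48, 5.54 and 5.79 in untreated cells and 6.01, 6.06 and 6.05 at 800 ng/ml, and differences of 0.44 ± 0.18 and 0.40 ± 0.13. Of 15 genes of inositol phosphatases and PI3K signalling 12 had a higher mean with all arrays and 8 without untreated replicate 2. Of 20 genes of insulin signalling, FOXO factors and gluconeogenesis 12 and 8 did, and PPP1R3D and FOXO6 were the 2 members with a lower mean and an unadjusted p under 0.05 with all arrays. Without untreated replicate 2 there were 3 such members. Over all genes the shares were 2.64% and 2.83%. PPP1R3D and FOXO6 were named for their small p, so these counts are no independent support.

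The rest of the 12 lower genes showed no overlap either. CRYBG2 had 4.22, 5.71 and 4.62 in untreated cells and 3.45, 3.65 and 3.71 at 800 ng/ml, and its difference of −1.24 ± 0.32 shrank to −0.81 ± 0.15 without untreated replicate 2, which had been its highest array by over 1. HCAR1, a receptor for lactate, had 4.96, 5.25 and 4.92 and 4.28, 4.26 and 4.44, with differences of −0.72 ± 0.19 and −0.61 ± 0.13. CRNDE, a long noncoding RNA known from colorectal tumours, had 3.60, 3.46 and 3.57 and 3.11, 2.72 and 2.71, with differences of −0.70 ± 0.19 and −0.74 ± 0.15, and it was the only 1 of the 12 with untreated replicate 2 as the lowest untreated array. GPR183, an oxysterol receptor, had 3.75, 4.43 and 3.60 and 3.10, 2.87 and 3.17, with differences of −0.88 ± 0.24 and −0.63 ± 0.16. DNAAF8, an assembly factor of axonemal dynein, UNC45B, a myosin chaperone, and SPMIP6 had differences of −0.87 ± 0.21, −0.80 ± 0.22 and −1.14 ± 0.31, and −0.67 ± 0.12, −0.60 ± 0.14 and −0.82 ± 0.25 without untreated replicate 2. For SPMIP6 untreated replicate 1 was well below the other untreated arrays and near the 800 ng/ml arrays.

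**Figure D2:**
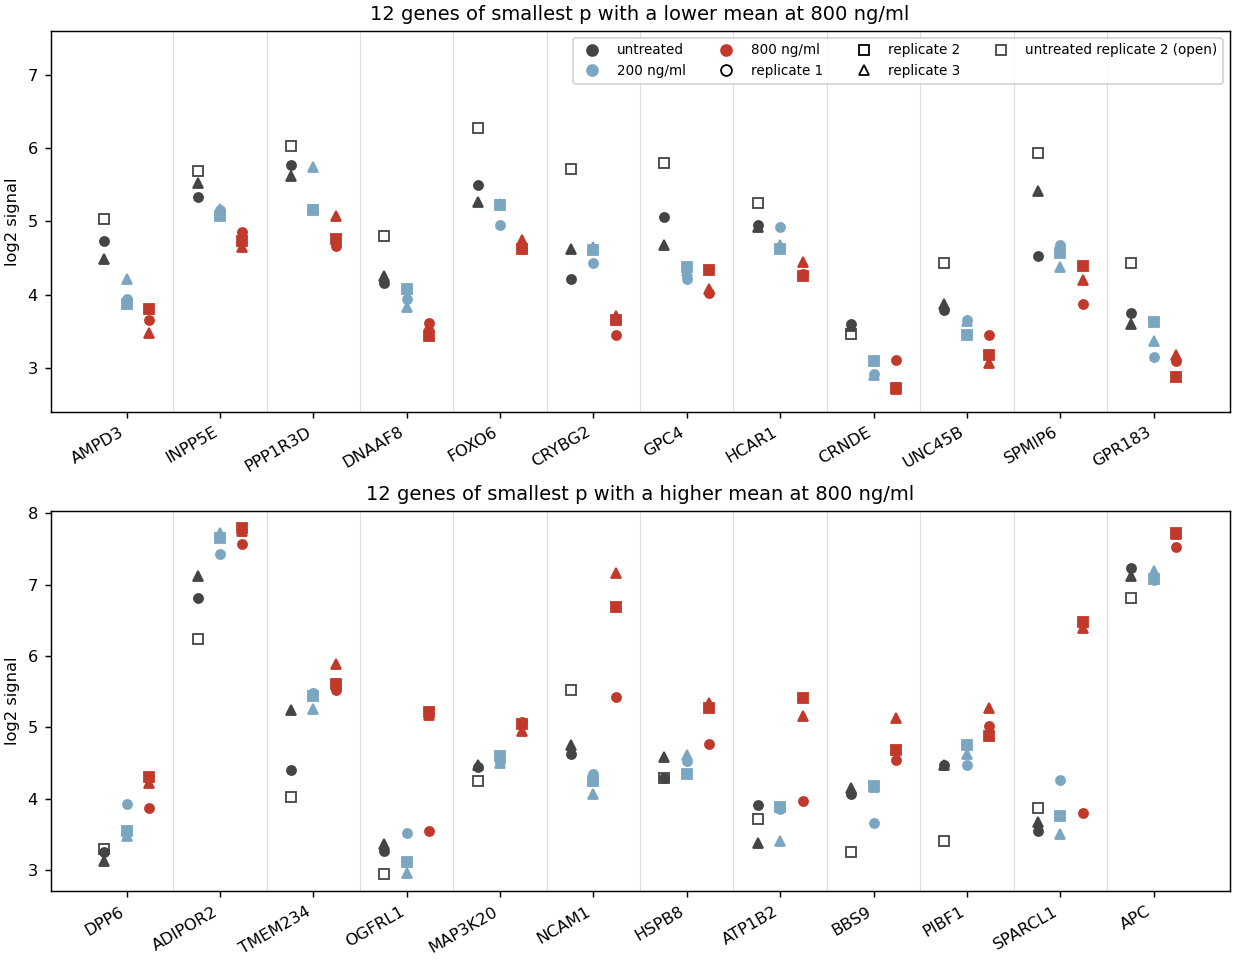
Log2 signal by array for the 12 genes of smallest p with a lower mean (top) and the 12 with a higher mean (bottom) at 800 ng/ml, with colours for the dose, shapes for the replicate and an open square for untreated replicate 2. The 3 red points lie below all grey points for each gene in the top panel, while OGFRL1, ATP1B2 and SPARCL1 in the bottom panel have replicate 1 near or within the untreated arrays.

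Among the 12 higher genes of smallest p, 10 showed no overlap with all arrays and 12 without untreated replicate 2. ADIPOR2, a receptor for the hormone adiponectin, had 6.81, 6.23 and 7.13 in untreated replicates 1, 2 and 3 and 7.57, 7.79 and 7.75 at 800 ng/ml. Each 800 ng/ml array lay above each untreated array, untreated replicate 2 was the lowest array, and the 200 ng/ml arrays had 7.43, 7.66 and 7.72. The difference was 0.98 ± 0.23, a ratio of 1.97, and 0.73 ± 0.15 without untreated replicate 2. ADIPOR2 was the only one of 16 genes of AMPK and adiponectin signalling with an unadjusted p under 0.05 in either fit. Over all genes 4.17% and 5.36% had one in the 2 fits, so 1 of 16 was near the share of all genes. A higher mean was found in 12 and 5 of the 16.

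MAP3K20, a stress kinase that responds to stalled ribosomes, was the most even of the group, with 4.45, 4.25 and 4.47 and 5.08, 5.05 and 4.95. The 200 ng/ml arrays stayed near the untreated ones at 4.52, 4.61 and 4.50. The difference was 0.64 ± 0.17 and 0.57 ± 0.11 without untreated replicate 2. APC, the scaffold of the beta-catenin destruction complex, had 7.23, 6.82 and 7.12 and 7.53, 7.72 and 7.71, with differences of 0.60 ± 0.18 and 0.48 ± 0.12, and it was one of 2 of the 12 that were brighter than the median gene. The 14 measured beta-catenin targets had a higher mean in 11 with all arrays and in 6 without untreated replicate 2.

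TMEM234, a membrane protein, had 4.40, 4.03 and 5.25 in untreated cells, with a wide spread among them, and 5.52, 5.61 and 5.89 at 800 ng/ml. BBS9, a subunit of the BBSome that carries cargo to cilia, had 4.06, 3.26 and 4.15 and 4.55, 4.68 and 5.13, and PIBF1, a protein of centriolar satellites, had 4.47, 3.42 and 4.47 and 5.02, 4.88 and 5.27. In these 3 genes untreated replicate 2 was the lowest array. Their differences of 1.12 ± 0.28, 0.96 ± 0.28 and 0.94 ± 0.28 were 0.85 ± 0.23, 0.68 ± 0.21 and 0.59 ± 0.14 without it. HSPB8, a small heat shock protein, had 4.29, 4.29 and 4.59 and 4.76, 5.28 and 5.35, with replicate 1 nearest to the untreated arrays, and differences of 0.74 ± 0.21 and 0.69 ± 0.19.

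DPP6, an auxiliary subunit of neuronal potassium channels, had 3.25, 3.30 and 3.13 and 3.87, 4.31 and 4.22. All 3 arrays at 800 ng/ml were above all untreated arrays, and the 200 ng/ml arrays, at 3.92, 3.55 and 3.48, were above them too. The difference was 0.90 ± 0.20 and 0.94 ± 0.18 without untreated replicate 2. NCAM1, a neural cell adhesion molecule, had 4.63, 5.52 and 4.76 and 5.42, 6.68 and 7.16, so that replicate 1 was above untreated replicates 1 and 3 but below untreated replicate 2. Its differences were 1.45 ± 0.39 and 1.73 ± 0.40. OGFRL1, ATP1B2 and SPARCL1, the remaining genes of the 12, were high in replicates 2 and 3 of the 800 ng/ml cells.

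The genes of smallest p differed in part without untreated replicate 2, since 3 of the 10 higher and 8 of the 10 lower genes of smallest p in that fit were also in the lists of 12. WHRN, a scaffold protein of stereocilia, had 4.62, 5.02 and 4.32 and 5.25, 5.25 and 5.19 without overlap, and its difference was 0.76 ± 0.15 without that array and 0.58 ± 0.21 with it. BAG1, a co-chaperone of HSP70, had 5.30, 4.28 and 5.08 and 4.58, 4.47 and 4.54, where untreated replicate 2 lay below the 800 ng/ml arrays and the other untreated arrays above them. Its difference was −0.66 ± 0.12 without that array and −0.35 ± 0.25 with it. OR52K2, an olfactory receptor gene, CCDC171 and MIEF2, a mitochondrial fission factor, had 0.75 ± 0.15, 0.57 ± 0.12 and 0.64 ± 0.14 without that array, against 0.47 ± 0.25, 0.28 ± 0.24 and 0.33 ± 0.26 with it. C17orf100 had −0.73 ± 0.15 and −0.53 ± 0.22.

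The other 3 genes of the 10 did not keep their size with all arrays. AMOTL1, an angiomotin of the Hippo pathway, had 3.43, 5.87 and 3.62 in untreated cells and 4.08, 4.05 and 4.10 at 800 ng/ml, a difference of 0.56 ± 0.12 without untreated replicate 2 and of the opposite sign, −0.23 ± 0.50, with it. MTNR1B, a melatonin receptor, had 3.95, 5.97 and 4.39 and 4.75, 4.81 and 4.81, with differences of 0.62 ± 0.14 and 0.02 ± 0.40. MLLT11 had 3.40, 4.76 and 3.17 and 3.80, 3.90 and 3.94, with differences of 0.59 ± 0.13 and 0.10 ± 0.34. In all 3, untreated replicate 2 lay above every 800 ng/ml array and the other untreated arrays lay below them.

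The clearest pattern within the 800 ng/ml group was a set of genes high in replicates 2 and 3 and not in replicate 1. The group was read array by array, and this split rests on the values themselves, so it is a description without a test. Replicates 2 and 3 both lay above the other 7 arrays in 558 genes (3.15%), and by over 1 log2 in 17 genes (0.0961%). In 13 of the 17, replicate 1 lay within the range of the untreated and 200 ng/ml arrays, in 2 above it and in 2 below it. Replicates 2 and 3 agreed to within 0.53 in all 17. Mean signal of the other 7 arrays was between 2.95 and 4.97, below the median gene in each case. In RNA from a whole culture, a different number of cells of a type and a different amount of RNA per cell cannot be told apart.

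Receptors led the set. NTRK2, the receptor for brain-derived neurotrophic factor, had 3.79, 4.05 and 3.46 in untreated replicates 1, 2 and 3, 3.91, 3.85 and 3.71 at 200 ng/ml and 3.63, 6.96 and 7.28 in 800 ng/ml replicates 1, 2 and 3. Replicate 1 was thus in the untreated range, and the lower of the other two lay 2.92 above the highest of the other 7 arrays. ADCYAP1R1, the receptor for the neuropeptide PACAP, had 3.36, 3.68 and 3.01, 3.08, 3.60 and 3.50 and 3.39, 6.29 and 6.22 in the same order, with a gap of 2.54. SPARC itself came next, with 4.05, 4.27 and 4.15 in the untreated arrays, 3.70, 3.92 and 3.51 at the low dose and 4.18, 6.79 and 6.48 at the high dose, and a gap of 2.20. Its close relative SPARCL1 had 3.55, 3.87 and 3.67, 4.26, 3.76 and 3.50 and 3.80, 6.48 and 6.39, with a gap of 2.12. The SPARC transcript was therefore high in 2 of the 3 arrays of cells given the SPARC protein and at the untreated level in the other.

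Other genes of the 17 had the same order of arrays. GFAP, the intermediate filament protein of astrocytes, had 4.50, 5.57 and 4.97 in untreated cells and 4.54, 7.88 and 7.75 at 800 ng/ml. PMP2, a fatty acid-binding protein of peripheral myelin, had 3.39, 3.26 and 3.38 and 3.19, 5.83 and 5.90, and GPM6A, a neuronal membrane glycoprotein, had 3.75, 3.73 and 3.35 and 3.75, 5.84 and 5.59. In each of these genes replicate 1 was close to the untreated arrays. CRYAB, a small heat shock protein also made by glia, had 3.82, 4.08 and 4.14 and 3.77, 5.80 and 6.33. ATP1B2, a beta subunit of the sodium pump found in glia, had 3.91, 3.71 and 3.38 and 3.98, 5.41 and 5.16. TSPAN7, a tetraspanin, had 3.57, 5.39 and 3.77 and 3.97, 6.85 and 6.98, with untreated replicate 2 well above the other untreated arrays.

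SOX2, a transcription factor of neural progenitors, had 4.39, 4.57 and 4.45 in untreated cells and 4.07, 5.84 and 6.06 at 800 ng/ml. RAB31, a small GTPase of vesicle traffic, had 3.80, 3.79 and 4.14 and 4.05, 5.49 and 5.70, and SRI, a calcium-binding protein, had 3.36, 4.33 and 3.57 and 3.48, 6.33 and 5.88. OGFRL1, RFTN2 and SCD5, a stearoyl-CoA desaturase expressed in brain, completed the 17 with 3.55, 5.21 and 5.17, 2.90, 4.99 and 4.47 and 3.88, 5.61 and 5.78 in 800 ng/ml replicates 1, 2 and 3, where NCAM1 also belongs. LDHB, the heart-type subunit of lactate dehydrogenase, had 3.78, 4.29 and 4.46 and 4.24, 5.37 and 6.10, the largest difference of the 20 glycolysis genes measured.

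**Figure D3:**
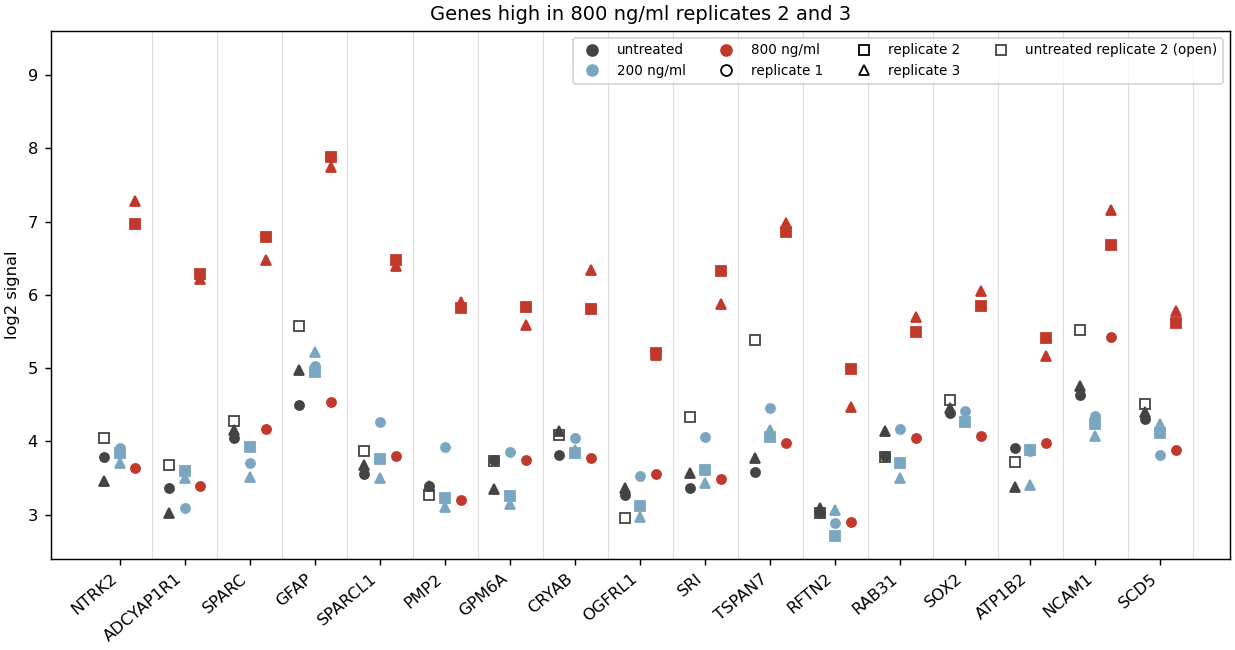
Log2 signal by array for the 17 genes in which 800 ng/ml replicates 2 and 3 both lay over 1 log2 above the other 7 arrays, ordered by that gap, with colours for the dose and shapes for the replicate. The red square and triangle stand clear of the rest, and the red circle of replicate 1 lies among the untreated and 200 ng/ml arrays in 13 of the 17.

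Of 19 measured neural receptors and adhesion molecules, a list drawn up with this pattern already known, 16 had a higher mean at 800 ng/ml with all arrays and 18 without untreated replicate 2. Over all genes the shares with a higher mean were 54.6% and 48.2%, and those with a lower mean 45.4% and 51.8%. The median difference of the list was 0.66 and 0.87, against 0.04 and −0.01 over all genes, and 0 members passed the test. A p under 0.05 before adjustment and a higher mean were found in 9 members with all arrays, where 1.53% of all genes had them, and in 11 without untreated replicate 2, where 2.53% had them. Both replicates 2 and 3 lay above the other 7 arrays in 11 of the 19, where 3.15% of all genes did. As the list was drawn up with the pattern known, these shares are no independent support for it. Relative to untreated replicates 1 and 3 the median deviation was 0.09, 1.15 and 1.18 in 800 ng/ml replicates 1, 2 and 3, and 0.64 in untreated replicate 2. BCAN, a proteoglycan of brain matrix, had 4.31, 5.27 and 4.32 and 4.57, 5.89 and 6.13, and GPM6B had 5.25, 6.18 and 5.29 and 4.88, 7.25 and 6.82. VCAN, a proteoglycan also made outside the nervous system, had 7.70, 6.80 and 7.92 and 7.78, 7.76 and 7.82, so it was as high in replicate 1 as in the other arrays at this dose.

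Markers of single neural cell types did not all follow. Of 10 astrocyte markers, replicates 2 and 3 lay above the other 7 arrays in 4, namely GFAP, SLC1A2, SLC1A3 and S100B. Over all genes 3.15% did, which is the background for each such count in this paragraph. The marker lists were chosen with earlier results known, so these counts are no independent support. A higher mean was found in 7 of the 10 astrocyte markers with all arrays and 6 without untreated replicate 2 (medians 0.20 and 0.22). SLC1A3, a glial glutamate transporter, had 4.83, 6.43 and 4.47 in untreated cells and 5.05, 6.72 and 6.74 at 800 ng/ml, with untreated replicate 2 nearly as high as replicates 2 and 3. The astrocyte markers ALDH1L1, GJA1 and FABP7 had 4.26, 4.66 and 3.98, 4.09, 3.53 and 3.89 and 3.46, 3.51 and 3.56 at 800 ng/ml, in each case below the highest untreated array in replicates 2 and 3. The summed log2 signal of the 10 was 50.2 and 51.1 in untreated replicates 1 and 3, 54.2 in untreated replicate 2, 49.9 to 52.0 at 200 ng/ml, and 50.9, 57.8 and 57.3 in 800 ng/ml replicates 1, 2 and 3. Of 9 oligodendrocyte markers 1, CNP, was above the other 7 arrays in both, and MBP, a main protein of myelin, had 5.80, 5.73 and 6.02 and 5.68, 5.77 and 5.93. Their sum was 43.5 in untreated replicates 1 and 3, 48.2 in untreated replicate 2, and 44.3, 45.5 and 45.9 in the 800 ng/ml arrays, and 4 of the 9 had a higher mean with all arrays and 7 without untreated replicate 2 (medians −0.05 and 0.26). Of 9 neuronal markers 1, MAP2, was above, while SNAP25 and SYT1, proteins of the synapse, had 4.24, 4.66 and 4.60 and 3.19, 3.14 and 3.09 at 800 ng/ml against 4.34, 5.12 and 4.37 and 3.06, 3.64 and 2.96 in untreated cells. Their sum was 36.1 and 36.7 in untreated replicates 1 and 3, 44.3 in untreated replicate 2, and 36.8, 38.7 and 38.3 in the 800 ng/ml arrays, and 2 of the 9 had a higher mean with all arrays and 7 without untreated replicate 2 (medians −0.11 and 0.13). STMN2, a microtubule regulator of neurons, was lower at 800 ng/ml without overlap, at 3.50, 4.18 and 3.62 and 3.0, 3.28 and 3.07, with differences of −0.65 ± 0.21 and −0.44 ± 0.13. No marker had a signal of 0, the table holds no background calls, and the part of cells of another type or of RNA from another sample in the pattern was not tested.

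**Figure D4:**
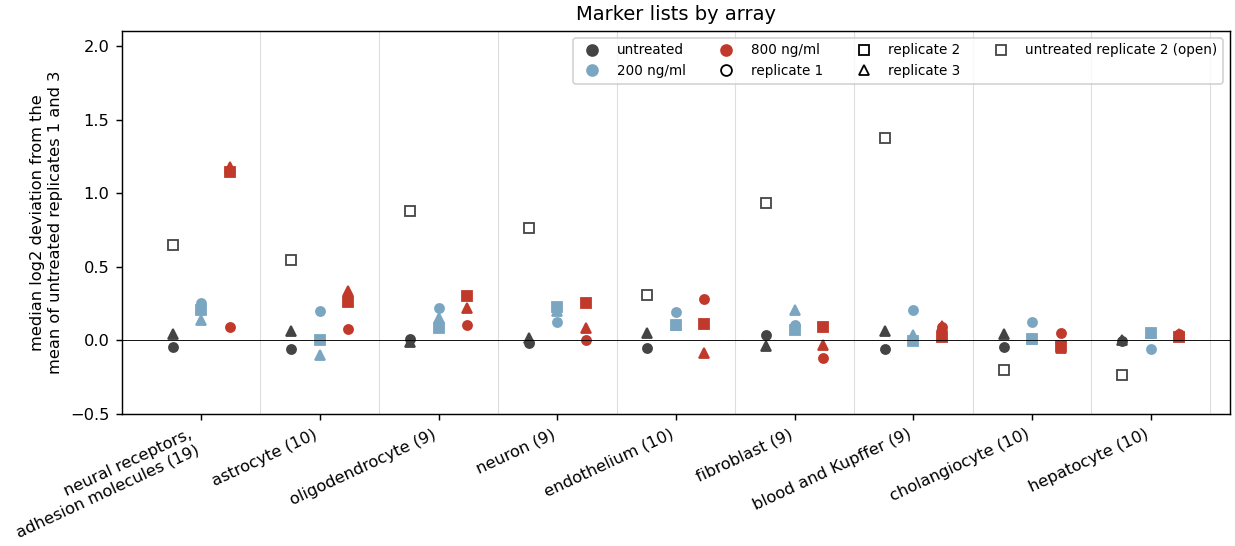
Median log2 deviation of each marker list from the mean of untreated replicates 1 and 3, by array, with the number of measured markers in brackets. Among 800 ng/ml arrays the neural list is at 0.09 in replicate 1, 1.15 in replicate 2 and 1.18 in replicate 3, and the open square of untreated replicate 2 is high for the blood and Kupffer, fibroblast, oligodendrocyte and neuron lists.

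Markers of other cells of liver did not set replicates 2 and 3 apart from replicate 1. The summed log2 signal at 800 ng/ml was 47.8 to 50.2 for 10 endothelial, 41.4 to 42.5 for 9 fibroblast, 53 to 53.4 for 9 blood and Kupffer, and 65.4 to 66.7 for 10 cholangiocyte markers. In untreated replicates 1 and 3 the ranges were 48.4 to 48.6, 41.1 to 41.7, 51.6 to 52.8 and 65.8 to 65.9, and untreated replicate 2 had 53.6, 47.4, 60.7 and 67.9. The log2 signals of the 10 hepatocyte markers summed to 107.6 to 107.9 at 800 ng/ml, 107.5 in untreated replicates 1 and 3, and 105.0 in untreated replicate 2. Both replicates 2 and 3 lay above the other 7 arrays in 0 markers of each of these 5 lists, where 3.15% of all genes did. At that share 0 is the likely count in lists this short, so it does not show that such cells were absent.

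Fewer genes were low in replicates 2 and 3, and no gap reached 1 (0 genes, 0%), although 540 genes lay below the other 7 arrays by any amount (3.05%). MCC, a gene mutated in colorectal cancers, had 5.12, 5.85 and 5.43 in untreated cells and 5.36, 4.57 and 4.28 at 800 ng/ml, and NOXO1, the organiser subunit of an NADPH oxidase, had 4.70, 5.04 and 4.68 and 4.97, 4.02 and 3.95. In both genes replicate 1 was in the untreated range. Replicate 1 had 0 genes over 1 log2 above (0%) and 0 over 1 log2 below (0%) the other 8 arrays, and the genes with the widest smaller gaps are given as examples. SPATA1 had 4.79 in replicate 1 against 2.84, 3.22 and 3.81 in untreated cells, and NPY1R, a receptor for neuropeptide Y, had 4.28, 3.56 and 2.58 at 800 ng/ml. IL11RA, the receptor for interleukin 11, had 6.23, 8.0 and 5.76 and 5.0, 6.29 and 5.82, and WNT5B, a secreted signalling ligand, had 4.82, 6.32 and 5.02 and 3.89, 4.68 and 4.80.

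Leaving out 800 ng/ml replicate 1 called 12 genes, all higher (limma, smallest adjusted p = 0.00146). They were NTRK2, ADCYAP1R1, SPARC, SPARCL1, PMP2, GFAP, CRYAB, OGFRL1, GPM6A, SOX2, RFTN2 and SRI, all of them among the 17. With untreated replicate 2 also left out 24 genes were called (limma, smallest adjusted p = 0.000451). Those added included TSPAN7, NCAM1, BCAN, TCF4, a transcription factor, GABBR1, a GABA receptor subunit, and the glutamate transporter SLC1A3. Leaving out 800 ng/ml replicate 2 or replicate 3 instead called 0 genes (smallest adjusted p = 0.792 and 0.828). Since replicate 1 was known to lie apart, these calls describe replicates 2 and 3 and are not independent of the pattern above.

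The SPARC family and other matricellular proteins were the list nearest to the treatment. Of 19 measured, 11 had a higher mean at 800 ng/ml in both fits, with medians of 0.13 and 0.06. The differences were 1.66 ± 0.52 for SPARC and 1.86 ± 0.57 for SPARCL1, and 1.71 ± 0.62 and 1.94 ± 0.67 without untreated replicate 2, with wide SEs, as replicate 1 lay far from the other arrays at this dose. STAB1, a scavenger receptor that takes up SPARC, had 5.20, 6.20 and 5.53 in untreated cells and 4.85, 5.17 and 4.49 at 800 ng/ml, all lower than every untreated array, with differences of −0.81 ± 0.27 and −0.53 ± 0.19 without untreated replicate 2. THBS1, thrombospondin 1, had 10.05, 9.24 and 10.03 and 10.11, 10.05 and 10.13, where untreated replicate 2 alone was low. CCN2, a growth factor-binding protein, had 9.67, 9.03 and 9.77 and 9.52, 9.72 and 9.64.

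Matrix genes showed no common direction. Of 21 collagens 6 had a higher mean with all arrays and 9 without untreated replicate 2, with medians of −0.21 and −0.02. COL4A2, a chain of the type IV collagen of basement membranes, had 6.44, 7.17 and 6.31 and 6.98, 6.91 and 6.62, with differences of 0.19 ± 0.24 and 0.46 ± 0.14. COL4A4, another type IV chain, had 4.58, 5.60 and 4.58 and 5.02, 5.04 and 4.84, with differences of 0.05 ± 0.28 and 0.39 ± 0.16. These were the 2 collagens with a p under 0.05 before adjustment without untreated replicate 2, where 5.36% of all genes had one. With all arrays 0 collagens had one, where 4.17% of all genes did. COL1A2, a chain of type I collagen, to which SPARC binds, had 6.94, 8.20 and 6.71 and 6.67, 6.55 and 6.54, with no overlap, and differences of −0.70 ± 0.33 and −0.24 ± 0.15, past that level in neither fit. Untreated replicate 2 exceeded the other untreated arrays by over 1 in this gene. Of 19 matrix glycoproteins and laminins 13 and 11 had a higher mean (medians 0.17 and 0.05), and of 25 matrix proteases and inhibitors 8 and 9 (medians −0.08 and −0.03). PLAUR, the urokinase receptor, had 3.94, 4.36 and 4.11 and 3.41, 3.79 and 3.32, with differences of −0.63 ± 0.20 and −0.52 ± 0.16 and no overlap.

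Receptors for the matrix were similarly divided. Of 16 integrins 8 and 6 had a higher mean (medians −0.00 and −0.04). ITGA5, an integrin chain that binds fibronectin with ITGB1, had 3.85, 4.05 and 4.02 in untreated cells and 3.51, 3.18 and 3.30 at 800 ng/ml, without overlap, and differences of −0.64 ± 0.19 and −0.60 ± 0.15. The 200 ng/ml arrays had 3.52, 3.33 and 3.18. ITGB8, which activates latent TGF-beta, had 2.67, 2.73 and 2.66 and 2.85, 2.93 and 4.29, so replicate 3 alone was high, and the differences were 0.67 ± 0.33 and 0.69 ± 0.37. Of 21 genes of focal adhesion and integrin signalling 17 and 10 had a higher mean (medians 0.27 and −0.01). VCL, which links adhesions to actin, had 8.94, 7.92 and 8.94 and 9.20, 9.13 and 9.24, with differences of 0.59 ± 0.26 and 0.25 ± 0.11. PARVA, a partner of integrin-linked kinase, had 6.50, 5.78 and 6.34 and 6.69, 6.51 and 6.61, with differences of 0.39 ± 0.22 and 0.18 ± 0.13. Both showed no overlap, and untreated replicate 2 was their lowest array. Of the 21 genes, 3 were higher without overlap in each fit, where 6.08% and 10.5% of all genes were. The counts lower without overlap were 0 and 2, where 5.14% and 11.8% of all genes were.

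Pathways that SPARC is known to touch gave 0 called members, as did the whole table (0%), and are described by their counts. Of 20 genes of mesenchymal transition 11 and 13 had a higher mean (medians 0.11 and 0.03), of 18 in the TGF-beta list 14 and 7 (0.26 and −0.03), and of 25 growth factors and receptors 12 and 12 (−0.00 and −0.03). Of 15 Hippo genes 13 and 7 had a higher mean (0.28 and −0.02). Of 17 targets of NF-kappaB and chemokines 9 and 8 did (0.00 and −0.01), and of 17 hypoxia-induced genes 13 and 5 (0.11 and −0.09).

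Of 18 interferon-stimulated genes 6 were higher without overlap and 0 lower with all arrays, where 6.08% and 5.14% of all genes were. Without untreated replicate 2 these were 7 and 2, where 10.5% and 11.8% of all genes were. Higher means were found in 8 and 11 members, with medians of −0.02 and 0.07. PSMB9, a subunit of the immunoproteasome, had 5.20, 4.92 and 5.17 in untreated cells and 5.94, 5.41 and 5.81 at 800 ng/ml, with differences of 0.62 ± 0.21 and 0.53 ± 0.18. IFIT1, an antiviral RNA-binding protein, had 3.63, 3.44 and 3.12 and 3.93, 3.70 and 3.96, with differences of 0.47 ± 0.19 and 0.49 ± 0.16. ISG15, the ubiquitin-like modifier, overlapped between groups at 4.82, 5.99 and 4.96 and 5.09, 4.35 and 4.72. MX1, an antiviral GTPase, had 3.67, 4.27 and 3.50 and 3.69, 3.93 and 3.69, so the groups overlapped through untreated replicate 2 and not without it. Its difference was −0.04 ± 0.25 with all arrays and 0.18 ± 0.19 without that array.

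Lists of growth and metabolism had more higher means with untreated replicate 2 than without it. Higher means were found in 22 of 24 genes of mitosis with all arrays and 12 without that array (medians 0.30 and −0.00), and in 21 and 7 of 24 genes of DNA replication (0.24 and −0.07). For splicing factors the counts were 16 and 8 of 16 (0.23 and −0.00), and for the respiratory chain 20 and 10 of 21 (0.27 and −0.00). They were 17 and 11 of 18 for fatty acid oxidation (0.32 and 0.02), 13 and 7 of 15 for cholesterol and fatty acid synthesis (0.30 and −0.00) and 15 and 11 of 20 for glycolysis (0.15 and 0.02). Untreated replicate 2 was itself low on these lists relative to untreated replicates 1 and 3, with medians of −0.90, −0.85, −0.65, −0.71, −0.87, −0.92 and −0.47 in the order given. These are lists of bright genes, with mean signals of 7.56 to 9.37 in untreated replicate 1. The blood and Kupffer, fibroblast, oligodendrocyte and neuron markers, on which untreated replicate 2 was high, had 4.02 to 5.74. The part of its narrower spread of signal in these deviations was not tested. The 3 arrays at 800 ng/ml lay between −0.07 and 0.08 on the same scale. COX5B, a subunit of cytochrome c oxidase, had 7.85, 6.92 and 8.01 and 8.13, 8.20 and 8.18, so its difference of 0.57 ± 0.26 became 0.24 ± 0.11. ACADM, which oxidises medium-chain fatty acids, had 0.51 ± 0.27 and 0.15 ± 0.11, and SRSF7 and HNRNPA2B1, both splicing factors, had 0.58 ± 0.29 and 0.51 ± 0.24 against 0.19 ± 0.11 and 0.26 ± 0.15.

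Stress and liver lists also had fewer higher means without untreated replicate 2. Of 16 heat shock proteins 15 had a higher mean with all arrays and 8 without untreated replicate 2 (medians 0.20 and −0.01), of 19 oxidative stress genes 18 and 9 (0.20 and −0.00), of 18 genes of the unfolded protein response 13 and 7 (0.19 and −0.03) and of 21 apoptosis and p53 genes 18 and 5 (0.20 and −0.04). MT2A, a metallothionein, had 9.59, 8.58 and 9.67 and 9.84, 9.92 and 9.91 without overlap, with differences of 0.61 ± 0.26 and 0.26 ± 0.11, and its near-identical relatives make the single value uncertain. GCLC, an enzyme of glutathione synthesis, had 0.57 ± 0.31 and 0.14 ± 0.13. Hepatocyte secreted proteins had 19 and 12 of 25 higher (0.10 and −0.02), and liver-enriched transcription factors 12 and 7 of 14 (0.19 and 0.01). Over the 33 lists the median was above 0 in 27 with all arrays and in 10 without untreated replicate 2.

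**Figure D5:**
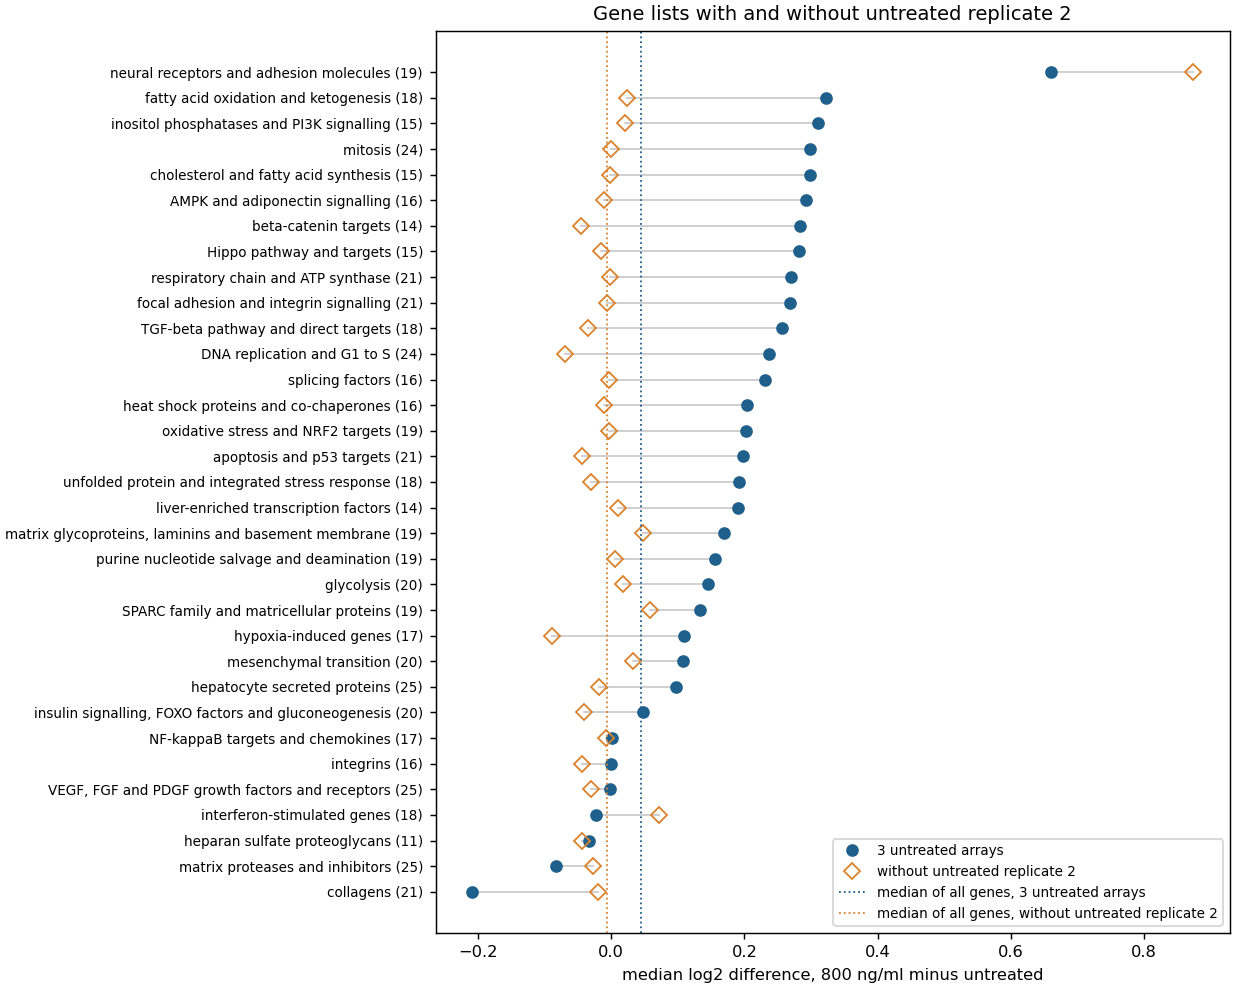
Median log2 difference, 800 ng/ml minus untreated, of each gene list with 3 untreated arrays (filled) and without untreated replicate 2 (open), with the number of measured genes in brackets and dotted lines at the medians over all genes. Most lists move to near 0 without that array, whereas the neural list, drawn up with its pattern already known, goes from 0.66 to 0.87.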

How the data were processed

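Total RNA of 9 HepG2 samples was read on 1-colour arrays, 3 per group, and the 6 arrays at 0 and 800 ng/ml were compared. The deposited table holds 21448 probe clusters as log2 values, the scale being read from the values. The submitters' processing notes name R 3.0, and the normalization by the authors is not given in the sources used here. No step of background correction or scaling was added. Of the clusters 17709 had 1 gene symbol, 0 several and 3739 none, and for the 20 genes with more than 1 cluster the brightest over the 9 arrays was kept, giving 17687 genes.

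All 9 arrays were fitted together by group with limma 3.58.1 in R 4.3.3 (lmFit, eBayes), p-values were adjusted by Benjamini-Hochberg over all genes, and the threshold was 0.05. The same fit was run without untreated replicate 2. Only the fit without untreated replicate 2 was checked on simulated data, drawn with the same spread in every array. The number of arrays limits the precision. Errors beside differences are standard errors.

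The genes named are the 12 of smallest p in each direction with all arrays, those among the 10 of smallest p in each direction without untreated replicate 2, genes with gaps between replicates, and list members of smallest p. Others were chosen after their values were seen. The comparison, the 33 gene lists and the 8 marker lists (655 of 721 genes measured) were chosen with earlier results of these data known. Deviations from the group mean correlated at 0.01, 0.11 and 0.08 between untreated and 800 ng/ml arrays of the same replicate number. Untreated replicate 2 dominates the untreated deviations, so these values cannot show whether the arrays were paired. Promoters are RefSeq windows on GRCh38.p14. Alternatives covered normalization, dim genes, clusters, prior, array weights, block and left-out arrays.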

Additional observations from a re-analysis of the deposited data

How the results depend on the processing

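The count of 0 genes at an adjusted p under 0.05 (limma) was 0 under quantile normalization, median centring, without the dimmest 25% or 50% of genes, with the mean of all clusters, with a trended robust prior, with only the 6 arrays, and against a minimum fold of 1.5. With array weights it was 732 (377 higher, 355 lower), where untreated replicate 1 had a weight of 10.7 and untreated replicate 2 of 0.0399. Array weights without any 1 of the untreated arrays, an alternative chosen after seeing the data, gave 0 each. Leaving out 1 array gave 0 to 12 genes, the 12 without 800 ng/ml replicate 1. With untreated replicate 2 and 800 ng/ml replicate 1 both absent, 24 were called. The replicate number as a block gave 0 genes (733 at an unadjusted p under 0.05), and whether the numbers pair the arrays could not be told.

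Lists with a median above 0 numbered 27 of 33, 16 with array weights, and 10 to 31 when 1 array was left out. The low count of 10 was without untreated replicate 2. On that basis it was 17 with quantile normalization, 9 without the dimmest 50% of genes, 15 with the block, and 10, 18 and 13 with 800 ng/ml replicate 1, 2 or 3 also left out. The cause of these shifts was not tested. Dim signal and 3 arrays per group limit what could be detected.

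Before adjustment the count of 737 genes at p under 0.05 was 316 with only the 6 arrays, 230 without the dimmest 50% of genes, 3691 with array weights, 2112 and 2708 without untreated replicate 1 or 3, and 342 to 432 without 1 of the 800 ng/ml arrays. Of the 59 genes followed through these settings, AMOTL1, MX1, MLLT11, MTNR1B, COL4A2, COL4A4 and APOA1 changed sign in some. The cause was not tested. Other named genes were not followed. Among them CCN2, VCAN, SNAP25 and SYT1 also changed sign between the values with and without untreated replicate 2. With 1 or more arrays left out, the log2 difference ranged from −0.67 to 0.57 for AMOTL1, −0.20 to 0.23 for MX1, −0.20 to 0.63 for MLLT11, −0.39 to 0.64 for MTNR1B, −0.12 to 0.45 for COL4A4 and −0.023 to 0.21 for APOA1. AMOTL1 was 0.63 with array weights and, without untreated replicate 2, 0.56 with the 5 arrays, with quantile normalization and with the replicate block. MX1 was 0.10 with quantile normalization, 0.12 with array weights and, without untreated replicate 2, 0.18 with the 5 arrays, 0.18 with quantile normalization and 0.20 with the block. With quantile normalization of all arrays MTNR1B was −0.018, COL4A2 −0.00197 and APOA1 −0.00815.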
